A study of Mus musculus with 59 samples.

Results

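Type I interferons are secreted proteins that cells make on sensing viral nucleic acid. They bind the receptor Ifnar1 and Ifnar2, whose kinases Jak1 and Tyk2 activate signalling through Stat2 and Irf9, which switches on interferon-stimulated genes through a promoter sequence called the interferon-stimulated response element. Pluripotent stem cells are known for a weak interferon response, and fibroblasts, the usual feeder cells, for a strong one. The set described here lists 8 such genes. Oasl2 (an oligoadenylate synthetase-like protein), Ifit1 and Ifit3 (proteins with tetratricopeptide repeats that act on viral RNA), Isg15 (a ubiquitin-like modifier) and Bst2 (a membrane protein that tethers virus particles) are effectors. Ddx60 (a helicase linked to RNA sensing) and Ifih1 (a sensor of long double-stranded RNA) act at detection, and Irf7 is the transcription factor that drives interferon alpha genes.

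The members were the probe sets carrying these gene names in the platform annotation, the brightest per gene. Of the 8 listed genes, 6 were measured, among 11807 genes in all, and Isg15 and Bst2 are not analysed here. Each measured member had 1 probe set. Oasl2 and Ddx60 were chosen by their measured levels, which differ between sets of clones, so their levels are given as a description with no test, and their tests in any comparison are left out.

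RNA of 59 mouse lines was profiled on Affymetrix arrays, 1 array per line. The 15 iPSC clones of chimera 2 came from HSCs (3), GMPs (3), granulocytes (3) and TTFs (6), the 13 of mouse 1 from HSCs (4), GMPs (4), granulocytes (3) and PFs (2), and the 14 of mouse 2 from HSCs (4), GMPs (4), granulocytes (3) and PFs (3). HSC, GMP and granulocyte origins are here called blood origin (31 clones), and PF and TTF origins fibroblast origin (11 clones). The labels do not spell out PF, so its place among fibroblast origins is an assumption on which the blood minus fibroblast values of mouse 1 and mouse 2 rest. Fibroblast origin was TTF in chimera 2 only and PF in mouse 1 and mouse 2 only. Where these values differ between chimera 2 and the mice, animal and fibroblast source cannot be told apart. A further 6 iPSC clones came from MEFs of chimera 1. There were 6 NT-ESC lines from cloned blastocysts, 3 made from the fetal liver iPSC line Adeno-2 (NT-4 to NT-6), 1 from iPSC-7 (NT-7) and 2 from iPSC-15 (NT-8 and NT-9), and 4 clones of targeted KH2 ESC. The ESC carried an inducible cassette of Myc, Klf4, Oct4 and Sox2, and per the series' design the iPSC came from chimeric mice made with such ESC, so these ESC and iPSC share the cassette. Adeno-2 is labelled as an Adeno-iPSC clone. All lines grew on irradiated MEFs in serum and LIF and were preplated to remove MEFs before RNA was made. The labels used here give no strain, age or batch. Clones of 1 animal are not separate animals, so p-values over clones measure the spread between clones.

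Values are log2 intensities on a scale centred near 0 on each array. Differences are in log2 units, and intensities of different genes are not compared. All 6 members were dim, at mean percentiles of 15.1 (Ifit1) to 38.3 (Ifit3) of the genes on an array, and the files used here give no detection calls, so whether the lowest levels, such as those of Ddx60 in TTF-derived clones, lie above background is not known here. The pluripotency markers Pou5f1, Sox2 and Nanog were high in all lines, except for Pou5f1 in iPSC-32. This PF-derived clone of mouse 2 had Pou5f1 at 0.28, with Sox2 at 4.24 and Nanog at 5.17. NT-7, NT-8 and NT-9 stood apart: their mean correlation with the ESC and iPSC arrays was 0.889 to 0.940. Their means over 19 haematopoietic markers were -0.99, -1.40 and -1.51, against -1.94 to -1.56 in ESC. The mean of 24 fibroblast and feeder markers was 0.85 to 1.29 in blood-derived clones of mouse 2 and 2.27 to 2.63 in its PF-derived clones. It was 0.47 to 1.60 in ESC, with ESC-1 the highest. In bulk RNA, fewer cells of a type and less RNA per cell cannot be told apart.

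Promoters are shown first because the members differed in the response element. The element was searched on both strands as GAAA, any 2 bases, GAAA, in 250 bases before and 50 after the start site of each gene in RefSeq (assembly GRCm38.p6), and all 8 listed genes matched the promoter table. It was found 2 times each in Ddx60, Ifit1, Ifit3 and Bst2, 3 times in overlapping copies in Isg15, once in Ifih1, and not in Oasl2 or Irf7. Over all 32851 promoters, 3.44% held at least 1 match and 0.225% at least 2. Below, capitals mark the matches, read 5′ to 3′ along the gene. The Oasl2 and Ddx60 stretches, from the genes with the widest levels, and that of Ifit1 hold the 160 bases before the start site in the promoter table, which for Oasl2 and Ddx60 lies a few bases inside the gene's span in the gene table. The start sites used for Ifit3 and Irf7 lie further inside their spans, and both Ifit3 matches fall within its span. The results for Ifit3 and Irf7 therefore depend on the start site used. The Ifih1 stretch lies just after the start site.
Oasl2 (chr5:114896774-114896933, + strand): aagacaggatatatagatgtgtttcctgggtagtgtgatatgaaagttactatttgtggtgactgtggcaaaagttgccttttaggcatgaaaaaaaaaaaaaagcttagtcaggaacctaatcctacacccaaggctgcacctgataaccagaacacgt
Ddx60 (chr8:61927927-61928086, + strand): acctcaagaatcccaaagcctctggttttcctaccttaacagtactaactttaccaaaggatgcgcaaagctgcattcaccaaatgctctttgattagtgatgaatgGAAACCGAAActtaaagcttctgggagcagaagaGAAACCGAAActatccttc
Ifit1 (chr19:34640729-34640888, + strand): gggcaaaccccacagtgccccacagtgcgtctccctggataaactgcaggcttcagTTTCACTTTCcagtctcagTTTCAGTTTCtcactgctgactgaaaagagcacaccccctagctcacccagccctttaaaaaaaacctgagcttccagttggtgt
Ifih1 (chr2:62646206-62646231, - strand): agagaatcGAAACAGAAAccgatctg
In Ddx60 both copies run as the gene does, beginning at positions -53 and -19 from the start, and in Ifit1 both lie on the opposite strand, so they read as TTTC repeats, beginning at positions -104 and -85. A match is a description of these letters and not a measured site.

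Oasl2 was highest in the blood-derived clones of chimera 2 and lowest in the blood-derived clones of mouse 2. In chimera 2 the level was -0.22, 0.08 and -0.18 in HSC-derived clones, 0.09, -0.27 and -0.14 in GMP-derived clones, and -0.01, 0.42 and 0.36 in granulocyte-derived clones. Its 6 TTF-derived clones ran from -1.39 over a median of -1.06 to -0.80, below all 9 blood-derived clones of the same animal, as for 6.8% of all genes. The 9 blood-derived clones averaged 0.015 ± 0.247 and the TTF-derived clones -1.10 ± 0.23 (SD, n = 9 and 6).

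In mouse 2, Oasl2 was -2.78, -2.56, -2.55 and -2.73 in HSC-derived clones, -2.28, -2.38, -2.001 and -2.07 in GMP-derived clones, and -2.38, -1.99 and -2.38 in granulocyte-derived clones. The PF-derived clones of that animal were at -2.46, -1.80 and -1.15 and overlapped the blood-derived ones. The 11 blood-derived clones of mouse 1 lay between those of the other animals, from -1.41 to -0.56 around a median of -1.19. PF-derived clones of mouse 1 were at -1.08 and -0.67. Their mean of -0.87 was above those of TTF origin in chimera 2 (-1.10) and PF origin in mouse 2 (-1.80). MEF-derived clones ranged from -1.83 to -0.24 around a median of -1.25, and ESC-1 to ESC-4 were at -0.26, -0.89, -1.20 and -1.66. The SD of the ESC clones, 0.59, was above that of each blood-derived group (0.097 to 0.364). NT-4, NT-5 and NT-6 were at -0.04, -0.14 and -0.22, level with the blood-derived clones of chimera 2, while NT-7, NT-8 and NT-9 were at -1.59, -2.03 and -1.74.

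The order of Oasl2 group means began with granulocyte, GMP and HSC origin of chimera 2 (0.26, -0.10 and -0.11) and the NT-ESC of Adeno-2 (-0.13). GMP and HSC origin of chimera 2 and the NT-ESC of Adeno-2 lay within each other's SD. Their SDs were 0.18, 0.16 and 0.09. The lowest means were those of granulocyte, GMP and HSC origin of mouse 2 (-2.25, -2.18 and -2.65). Over the origin groups with at least 2 clones the means spanned 2.91, a range at percentile 99.9 of all genes, whose median range was 0.46. This range restates the pattern for which Oasl2 was chosen.

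Ddx60 separated the same 9 clones more widely. In chimera 2 the level was -1.45, -0.34 and -0.82 in HSC-derived clones, -0.03, -0.62 and -1.04 in GMP-derived clones, and -1.32, -0.91 and -0.40 in granulocyte-derived clones. The 6 TTF-derived clones ran from -3.62 over a median of -3.22 to -2.71, again with no overlap. The blood-derived clones averaged -0.77 ± 0.47 and the TTF-derived clones -3.18 ± 0.30 (SD, n = 9 and 6).

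All 9 blood-derived clones of chimera 2 had more Ddx60 than any of the other 39 iPSC clones, which ranged from -3.62 to -2.08. By that criterion 4 genes (0.0339% of all genes) stood out, namely Ddx60, Gt(ROSA)26Sor, Phf21a and Ppp2r1a. The count rests on the pattern for which Ddx60 was chosen. Within the 3 blood origins of chimera 2 the means of -0.87, -0.56 and -0.88 for HSC, GMP and granulocyte origin differed by less than their SDs (0.56, 0.50 and 0.46).

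In the other iPSC Ddx60 was lower. Mouse 1 blood-derived clones had -3.14 to -2.38 and its PF-derived clones -2.99 and -3.02. Mouse 2 blood-derived clones had -3.19 to -2.60 and its PF-derived clones -3.24, -3.26 and -2.42. Of the MEF-derived clones, iPSC-1 and iPSC-3 were at -3.01 and -3.11 and the other 4 between -2.24 and -2.08. ESC-1 was at -1.85, and ESC-2 to ESC-4 were between -2.63 and -2.59. NT-4, NT-5 and NT-6 were at -1.63, -1.80 and -1.83, between the chimera 2 blood-derived clones and ESC, and NT-7, NT-8 and NT-9 were at -3.01, -3.57 and -3.43.

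**Figure D1:**
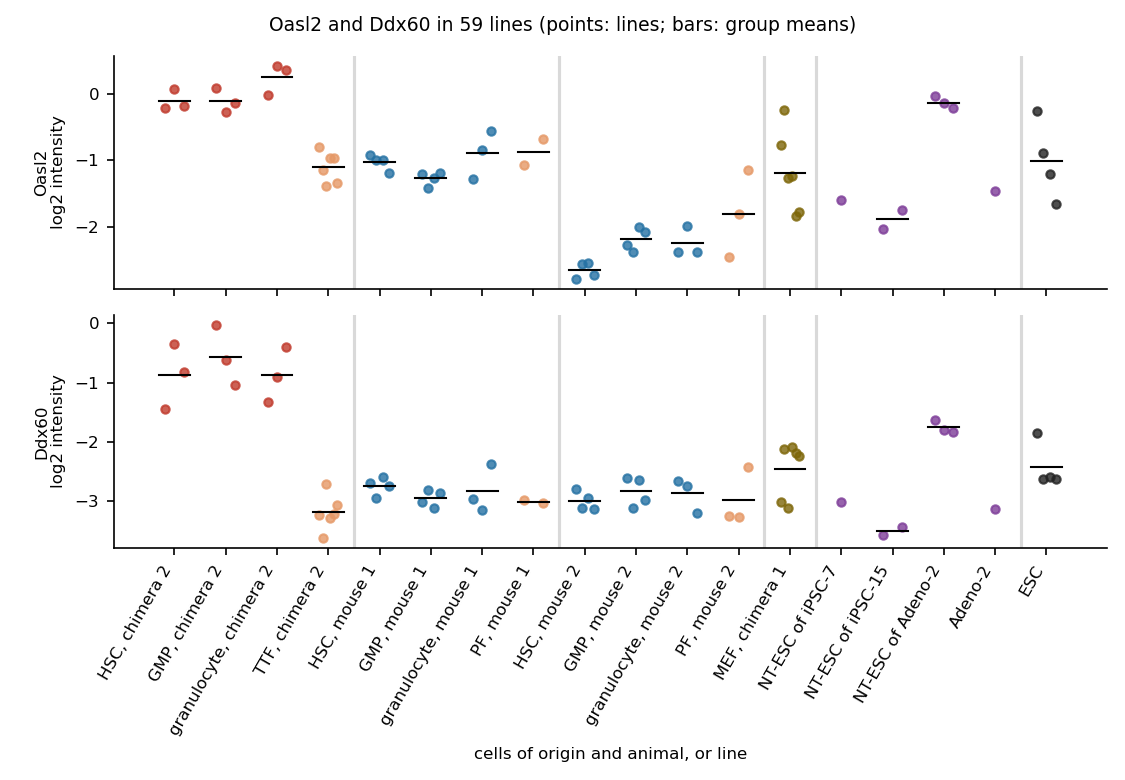
Oasl2 (top) and Ddx60 (bottom) in every line, as log2 intensity, with 1 point per line and a bar at the mean of each group of 2 or more lines. The 9 blood-derived clones of chimera 2 (red, left) lie above the 6 TTF-derived clones in both genes, and the blood-derived clones of mouse 2 are lowest in Oasl2 but not in Ddx60.

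The difference between blood-derived and fibroblast-derived clones, from 1 fit over the 42 clones of the 3 animals, was widest in chimera 2 for both genes. For Ddx60 it was 2.41 in chimera 2, 0.16 in mouse 1 and 0.07 in mouse 2. For Oasl2 it was 1.12 in chimera 2, -0.19 in mouse 1 and -0.55 in mouse 2. The fibroblast and feeder marker mean was lower in blood-derived clones of both chimera 2 and mouse 2. Its part in the differences of Oasl2 and Ddx60 was not tested. In chimera 2, the 3 measured genes on either side of each member differed by less than the member. Oasl2 and Ddx60 were chosen for differing between clone sets, so this order follows from that choice and tests nothing. Oasl1, next to Oasl2, differed by 0.28 in chimera 2 and by 0.28 in mouse 2. Palld and Anxa10, on either side of Ddx60, differed by -0.26 and 0.19 in chimera 2. In mouse 2, where Ddx60 itself hardly differed, they differed by -0.49 and -0.0962.

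Ifit3 was lower in blood-derived than in fibroblast-derived clones. The level over 31 blood-derived clones ran from -1.46 over a median of -1.18 to -0.77, and over 11 fibroblast-derived clones from -1.003 over a median of -0.83 to 0.17. The ranges overlapped. With animal in the fit the difference was -0.47 (SE 0.093, limma adjusted p = 5.73e-05). Ifih1 fell by 0.25 (SE 0.100, adjusted p = 0.0363) and Irf7 by 0.23 (SE 0.087, adjusted p = 0.0263), and Ifit1 differed by -0.14 (adjusted p = 0.315). So 3 of the 4 tested members passed, all lower, where 49.7% of all genes passed and 21.6% were lower and 28.1% higher. Of the 24 fibroblast and feeder markers, 22 were lower in the same comparison. With their mean as a covariate no member passed, and Ifit3 and Ifit1 differed by 0.08 and 0.23 (adjusted p = 0.712 and 0.438). That mean did not overlap between blood and fibroblast origin in chimera 2 or in mouse 2. Fits with this covariate can therefore hardly tell marker level from origin in those animals. Calls of Irf7 and Ifih1 were also lost after quantile normalization (adjusted p = 0.0506 and 0.0952) and without mouse 2 (0.46 and 0.568), as was that of Ifit3 without mouse 2 (0.0772). Without mouse 1 Irf7 and Ifih1 also missed the threshold (0.0941 and 0.0611), as did Irf7 without iPSC-32, iPSC-33 or iPSC-34 (0.0549, 0.0543 and 0.0842) and Ifih1 without iPSC-34 or iPSC-48 (0.235 and 0.0696).

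The widest differences of these genes were in mouse 2. Its 11 blood-derived clones had Ifit3 from -1.46 over a median of -1.36 to -1.09, all below its PF-derived clones at -0.49, -0.16 and -0.16. The difference was -1.06 (SE 0.128, adjusted p = 2.68e-08), where 40.7% of all genes passed. Irf7 was -2.28 to -1.57, with a median of -1.93, in the blood-derived clones and -1.49, -1.53 and -1.33 in the PF-derived clones. Those ranges did not overlap either, as for 8.22% of all genes in this direction, and the difference was -0.53 (adjusted p = 0.00361). Ifit1 differed by -0.27 (adjusted p = 0.322). Ifih1 differed by -0.68 (adjusted p = 0.00108), with the blood-derived clones between -2.92 and -2.59, and iPSC-32, iPSC-33 and iPSC-34 at -2.69, -2.53 and -1.10. Without iPSC-34 it differed by -0.17 (adjusted p = 0.305). Without iPSC-32, the clone low in Pou5f1, Ifit3, Irf7 and Ifih1 kept their calls (adjusted p = 8.36e-08, 0.0102 and 2.59e-05). With the fibroblast and feeder mean as a covariate none of the 4 passed within mouse 2, and Ifit3 differed by -0.44 (adjusted p = 0.206). In mouse 2 that mean was 0.85 to 1.29 in blood-derived and 2.27 to 2.63 in PF-derived clones. The covariate and origin can therefore hardly be told apart there, and the lost calls decide nothing.

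None of these members passed in the other animals. Within chimera 2, where 35.7% of all genes passed, the blood-derived clones had Ifit3 between -1.05 and -0.835, and the TTF-derived clones between -1.003 and 0.17 around a median of -0.84. The difference was -0.24 (SE 0.104, adjusted p = 0.0737). The top value, iPSC-46 at 0.17, stood far above the other TTF-derived clones, and without iPSC-46 the difference was -0.06 (adjusted p = 0.52). The call appeared without iPSC-47 or iPSC-49 (adjusted p = 0.028 and 0.048). Within mouse 1, where 12.3% of all genes passed, Irf7, Ifit3, Ifih1 and Ifit1 differed by -0.35, -0.15, -0.08 and 0.11 (adjusted p = 0.177, 0.539, 0.814 and 0.813). In chimera 2 Ifit1, Ifih1 and Irf7 differed by -0.18, -0.05 and 0.02 (adjusted p = 0.448, 0.827 and 0.94).

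A test of whether the blood minus fibroblast difference itself varied between animals called 20.2% of all genes. Chimera 2 had TTF and the mice had PF as fibroblast origin, so between them this test cannot tell animal from fibroblast source. Ifit3 was among the called genes, with animal effects spanning 0.91 (adjusted p = 0.000599, and 0.0176 with the fibroblast and feeder mean as a covariate). The ends of this span were mouse 1 (-0.15) and mouse 2 (-1.06), both with PF as fibroblast origin, and chimera 2 was at -0.24. Ifih1, Irf7 and Ifit1 were not called (adjusted p = 0.0589, 0.0733 and 0.651), though Ifih1 passed without iPSC-32, iPSC-33 or iPSC-48 (0.00329, 0.0136 and 0.033). All 24 fibroblast and feeder markers passed this test too. The level of Ifit3, Ifit1, Irf7 and Ifih1 across animals, tested with cell type in the fit, passed for none of the 4 (adjusted p = 0.243, 0.859, 0.113 and 0.51), where 44.9% of all genes passed. With the fibroblast and feeder mean as a covariate Ifit3 passed (adjusted p = 0.000669). For Oasl2 and Ddx60, given with no test, the animal levels spanned 1.86 and 1.43, and the animal effects on the blood minus fibroblast difference 1.67 and 2.34.

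**Figure D2:**
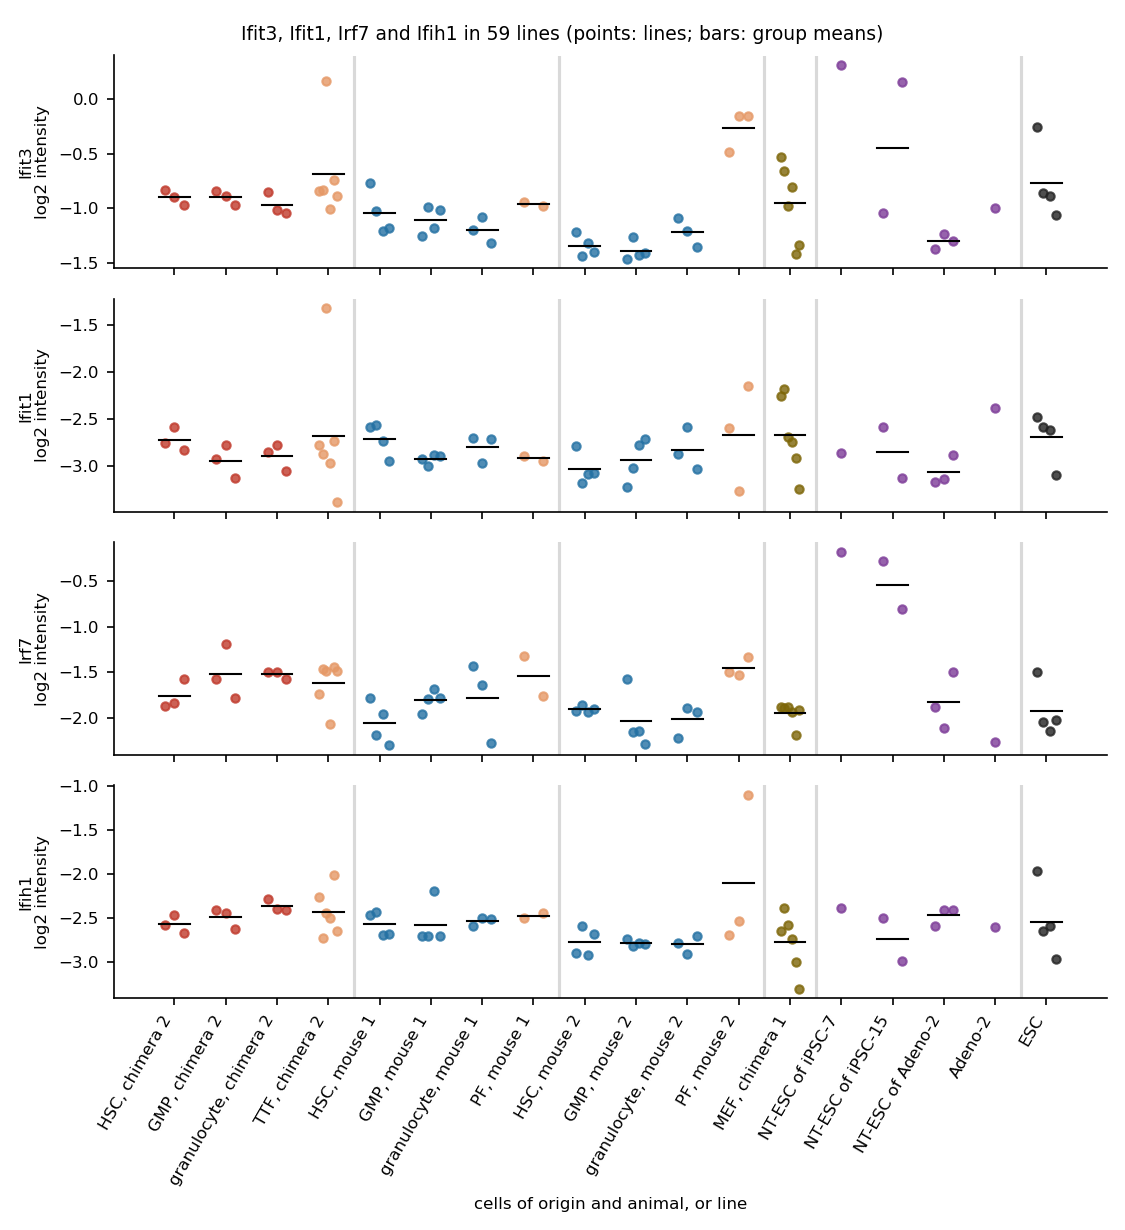
Ifit3, Ifit1, Irf7 and Ifih1 in every line as log2 intensity, 1 point per line, with bars at group means. PF-derived clones of mouse 2 are high in Ifit3, 1 TTF-derived clone (iPSC-46) is high in Ifit3 and Ifit1, 1 PF-derived clone (iPSC-34) is high in Ifih1, and NT-7, NT-8 and NT-9 are high in Irf7.

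Single clones gave the extremes of Ifit1 and Ifih1. Ifit1 was at -1.32 in iPSC-46, and the other 5 TTF-derived clones lay between -3.38 and -2.73. iPSC-46 and iPSC-34 had fibroblast and feeder means of 2.21 and 2.32, against group means of 1.87 for TTF origin of chimera 2 and 2.41 for PF origin of mouse 2, so iPSC-46 was the highest of its group and iPSC-34 was below the mean of its own. Across the 48 iPSC clones, after subtracting group means, the correlation with that mean was 0.595 for Ifit3, 0.462 for Ifit1, 0.299 for Oasl2, 0.296 for Irf7, 0.263 for Ifih1 and -0.281 for Ddx60. These are descriptions over clones that share animals. Ifit1 and Ifit3, neighbours on chromosome 19, had the highest correlation among the 15 pairs of members (r = 0.735 within groups). Oasl2 and Ifih1 followed (0.642). In iPSC-46 both Ifit1 and Ifit3 lay far above the other TTF-derived clones. The correlation without iPSC-46 is not given here, so the first place of this pair may rest on that clone. Oasl2 and Ddx60 had r = 0.677 over the 52 ESC and cassette iPSC lines and 0.232 without the 9 blood-derived clones of chimera 2.

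**Figure D3:**
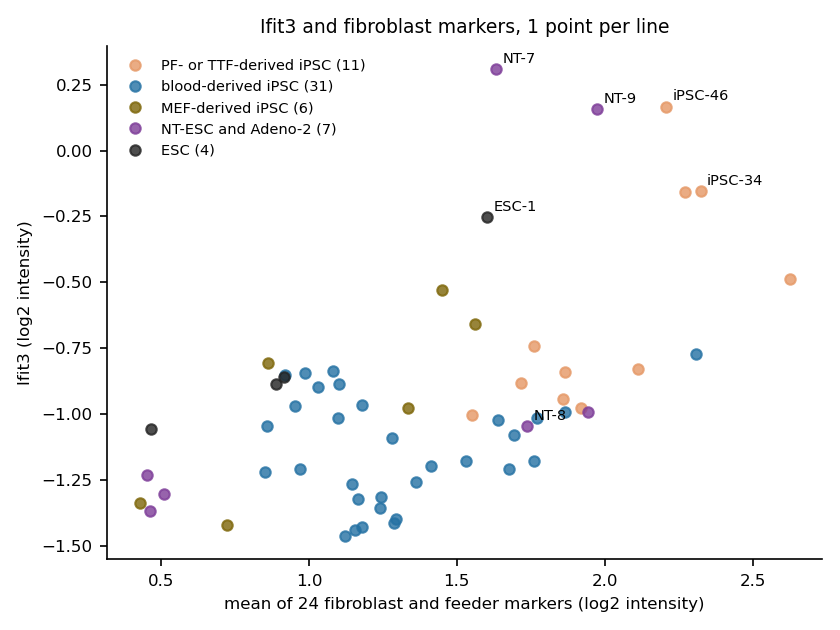
Ifit3 against the mean of 24 fibroblast and feeder markers, both as log2 intensity, 1 point per line, coloured by origin. On the horizontal axis fibroblast-derived clones lie at 1.55 to 2.63 and overlap the blood-derived clones, which lie at 0.85 to 2.31. The lines with Ifit3 above 0 are iPSC-46, NT-7 and NT-9.

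Other genes of the pathway were taken as 4 lists of 84 measured genes. Over the 3 animals, 12 of 49 other effectors were higher and 9 lower in blood-derived than in fibroblast-derived clones, with a median difference of 0.02. In the same comparison 28.1% of all genes were higher and 21.6% lower. Ifi202b and Cxcl10 differed by -0.66 and -0.58, and Oas1c and Oas3 by 0.56 each. Of 11 receptor and Jak-Stat genes 6 were higher and 2 lower, with Tyk2 at 0.53, Stat2 at 0.50, the phosphatase Ptpn6 at 0.28 and Irf9 at 0.23. Of 14 sensors and adaptors 1 was higher, the kinase Tbk1 (0.20), and 4 were lower, among them the receptors Tlr3 (-0.48) and Tlr9 (-0.20) and the kinase Ikbke (-0.21). Of 10 interferon ligands none was higher and 4 were lower, namely Ifna7 (-0.33), Ifna1 (-0.25), Ifnb1 (-0.22) and Ifna6 (-0.15). Levels across animals differed for 25 other effectors, 7 receptor and Jak-Stat genes, 5 sensors and adaptors and no ligand, where 44.9% of all genes passed. Spans were 1.17 for Cxcl10, 1.06 for Rtp4, 0.865 for Trim30a and 0.80 for Trim34a. They were 0.81 for Usp18, 0.41 for Ifnar2, 0.33 for Tyk2 and 0.21 for Jak1. For Zbp1, Irf3, Sting1 and Tbk1 they were 0.75, 0.36, 0.32 and 0.26.

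In chimera 2 the blood-derived clones showed more of several effectors than the TTF-derived clones. Of 49 other effectors 21 were higher and 5 lower, where 20.1% of all genes were higher and 15.6% lower, and their median difference was 0.14 against 0.01 over all genes. Rtp4, a receptor transporter protein, averaged -1.23 in blood-derived and -2.15 in TTF-derived clones, a difference of 0.92 (SE 0.202, adjusted p = 0.000359). Oas3 (an oligoadenylate synthetase) differed by 0.82, and Parp14 and Parp12 (ADP-ribosyltransferases) by 0.81 and 0.79, with adjusted p of 1.92e-08, 9.88e-08 and 9.82e-09. Among 11 receptor and Jak-Stat genes 5 were higher and 1 lower. Usp18, which removes Isg15 and restrains the receptor, differed by 0.64 (adjusted p = 0.000123), Stat2 by 0.64 (3.26e-05), Tyk2 by 0.42 (0.000124) and Irf9 by 0.32 (0.0297). The lower one was Ifnar1, a receptor chain, at -0.14 (0.0314).

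Of 14 sensors and adaptors 2 were higher and 1 lower in the same clones. Zbp1, a sensor of Z-form nucleic acid, differed by 1.03 (SE 0.167, adjusted p = 5.79e-06), the kinase Tbk1 by 0.25 and the transcription factor Irf3 by -0.23 (adjusted p = 0.00636 and 0.00238). Of 10 interferon ligands none was higher, and Ifna6 was lower by 0.15 (adjusted p = 0.0435). In this comparison 21 of 24 fibroblast and feeder markers were lower. With their mean as a covariate 10 other effectors were higher and none lower, where 823 of all genes were higher and 475 lower. The 5 lower effectors became 1 without iPSC-46 and 2 without iPSC-47 or iPSC-48. Shares of all genes in the fits without these clones are not given here.

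In mouse 2 more of the same effector list went the other way. There 5 were higher and 19 lower in blood-derived than in PF-derived clones, where 23.5% of all genes were higher and 17.2% lower, and their median difference was -0.14 against 0.01 over all genes. Trim30a (a tripartite motif protein) differed by -1.47, Ifi27l2a by -1.43, Ifi202b (a DNA-binding protein) by -1.31 and the chemokine Cxcl10 by -1.24, with adjusted p of 6.19e-07, 4.5e-10, 5.07e-06 and 0.00106. Rtp4 differed by -1.002 (adjusted p = 0.00136). Without iPSC-34 the lower effectors numbered 10. Of the 24 fibroblast and feeder markers 23 were lower, and with their mean as a covariate 3 effectors were higher and 5 lower. Shares of all genes without iPSC-34 and with the covariate are not given here, so those effector counts have no background beside them. Among receptor and Jak-Stat genes 4 were higher, led by Tyk2 (0.70) and Ptpn6 (0.52), and 4 lower, led by Usp18 (-0.63) and Jak1 (-0.40). Sensors lower in mouse 2 were Tlr3 (-0.90), Zbp1 (-0.62), Sting1 (-0.41) and Ikbke (-0.41), with none higher, and of the ligands Ifna6 was lower (-0.18). In mouse 1 the only other effectors called were Ifi27l2a (-0.84) and Ccl5 (-0.30), both lower, and Tyk2 was higher (0.52, adjusted p = 0.00436).

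The test of a difference between animals in the blood minus fibroblast contrast called 24 of 49 other effectors, 2 of 11 receptor and Jak-Stat genes, 3 of 14 sensors and adaptors and none of 10 ligands, against 20.2% of all genes. With the fibroblast and feeder mean as a covariate it called 23 of the 49, and its count over all genes is given in the last section. The animal effects spanned 1.92 for Rtp4, 1.75 for Trim30a, 1.60 for Ifi27l2a, 1.30 for Cxcl10, 1.27 for Usp18, 0.37 for Jak1, 1.65 for Zbp1, 0.73 for Sting1 and 0.32 for Irf3, with adjusted p between 8.43e-07 and 0.0447.

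**Figure D4:**
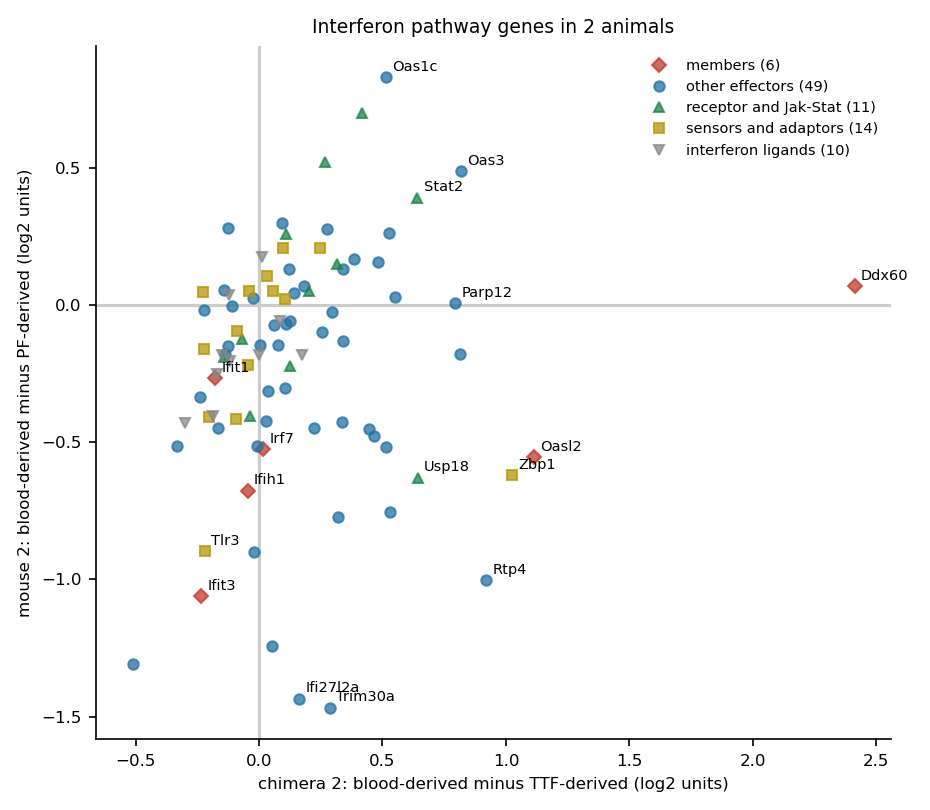
Blood-derived minus fibroblast-derived difference in chimera 2 (horizontal) and mouse 2 (vertical), in log2 units, for the 6 members and 84 other genes of the pathway, 1 point per gene. Ddx60 and Oasl2 lie at the right, Rtp4, Zbp1 and Usp18 are higher in chimera 2 and lower in mouse 2, and Ifit3 is at -0.24 in chimera 2 and -1.06 in mouse 2.

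Against ESC, no tested member passed in the iPSC. Comparing 6 MEF-derived clones with 4 ESC, limma called 0% of all genes (997 genes at an unadjusted p under 0.05). The differences were 0.02 for Ifit1, -0.02 for Irf7, -0.19 for Ifit3 and -0.23 for Ifih1, with SEs between 0.122 and 0.205. Oasl2 and Ddx60, given with no test, differed by -0.18 and -0.0368, and by -0.22 and -0.0573 for all iPSC. Comparing all 48 cassette iPSC with ESC, 4.94% of all genes passed, and Ifit3, Ifit1, Ifih1 and Irf7 differed by -0.23, -0.12, -0.03 and 0.14 (adjusted p = 0.449, 0.718, 0.924 and 0.588). ESC-1 was the highest ESC clone for all 6 members. Of the other pathway genes, Nmi (an adaptor of interferon signalling) was higher by 0.87, Irf3 by 0.41 and Ifnar1 by 0.26, and Socs3 (an inhibitor of Jak-Stat signalling) lower by 0.45 on the log2 scale (adjusted p = 0.0401, 0.039, 0.0447 and 0.0176). Over all genes, leaving out ESC-1 gave 1112 calls, and leaving out ESC-2, ESC-3 or ESC-4 gave 6, 5 and 303. With animal as a random block no gene passed in this comparison (900 at an unadjusted p under 0.05).

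In NT-ESC, Irf7 was above the donor line in every family. It was -0.18 in NT-7, against -1.78 in its donor iPSC-7, and -0.28 and -0.81 in NT-8 and NT-9, against -1.43 in their donor iPSC-15. In NT-4, NT-5 and NT-6 it was -1.87, -2.10 and -1.49, against -2.26 in Adeno-2. The difference was 0.89 in the fit with donor as a block (higher in 6 of 6 lines, SE 0.249, adjusted p = 0.0646), where 0.0593% of all genes passed. Without the Adeno-2 family the difference was 1.19 (adjusted p = 0.0453), in a fit that called 20.6% of all genes. The 3 highest Irf7 values in the series were in NT-7, NT-8 and NT-9, whose arrays stood apart. The SD over all genes of these arrays was 2.35 to 2.47, against 2.54 to 2.64 in the other lines, and 9, 10 and 9 of 10 interferon ligands, all dim, were above the donor (8 or 9 of 10 in NT-4 to NT-6). In each of NT-7, NT-8 and NT-9, 15 of 19 haematopoietic markers were above the donor, against 11, 11 and 13 in NT-4, NT-5 and NT-6. The share of all genes above the donor is not given here. Laptm5 and Tyrobp, both expressed in leukocytes, were at 1.46 and -0.29 in NT-7, against -0.08 and -2.86 in iPSC-7. Ptprc was at -3.34 in NT-7, against -3.83 in iPSC-7. In NT-8 and NT-9 Ptprc was at -3.91 and -4.31, against -3.91 in iPSC-15. Laptm5 was also at 0.99 in Adeno-2. Over all families 15 of the 19 markers differed upward from the donors and none passed. Cd53, Coro1a and Lcp1, of the same list, differed by -1.31, -1.03 and -0.43. The part of these markers and of the narrower spread in the Irf7 values was not tested.

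Ifit3 rose above its donor in NT-7 (0.31, against -0.77 in iPSC-7) and NT-9 (0.16, against -1.20 in iPSC-15) but hardly in NT-8 (-1.05, against the same donor), and in NT-4 to NT-6 it was below Adeno-2 (-1.37, -1.23 and -1.30, against -0.99). NT-8 and NT-9 share a donor yet differed, and the difference over all families was 0.42 (SE 0.326, adjusted p = 0.328). Ifit1 and Ifih1 differed by -0.39 and 0.02 (adjusted p = 0.147 and 0.94). Oasl2 was -0.04, -0.14 and -0.22 in NT-4, NT-5 and NT-6, against -1.46 in Adeno-2, and Ddx60 was -1.63, -1.80 and -1.83, against -3.12 in Adeno-2. Both went the other way in the remaining families, with Oasl2 at -1.59 in NT-7, against -0.92 in iPSC-7. Over all families they differed from the donors by 0.14 and 0.27. The 24 fibroblast and feeder markers were all lower in NT-4, NT-5 and NT-6 than in Adeno-2.

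Against ESC, none of the 4 tested members passed in NT-ESC (Irf7 0.80, SE 0.387, adjusted p = 0.275), where 0.00847% of all genes passed. Ifit1, Ifih1 and Ifit3 differed by -0.27, -0.0069 and 0.0173 (adjusted p = 0.328, 0.982 and 0.976), and Oasl2 and Ddx60, with no test, by 0.0449 and -0.125. Across all genes the median difference was 0.12 on the deposited scale. When only the 3 lines of Adeno-2 were kept, Ifit3 differed from ESC by -0.54 (adjusted p = 0.134). In the same 3 lines of Adeno-2, Oasl2 and Ddx60 were above the ESC mean by 0.87 and 0.67. The donor and ESC comparisons share the NT-ESC lines.

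**Figure D5:**
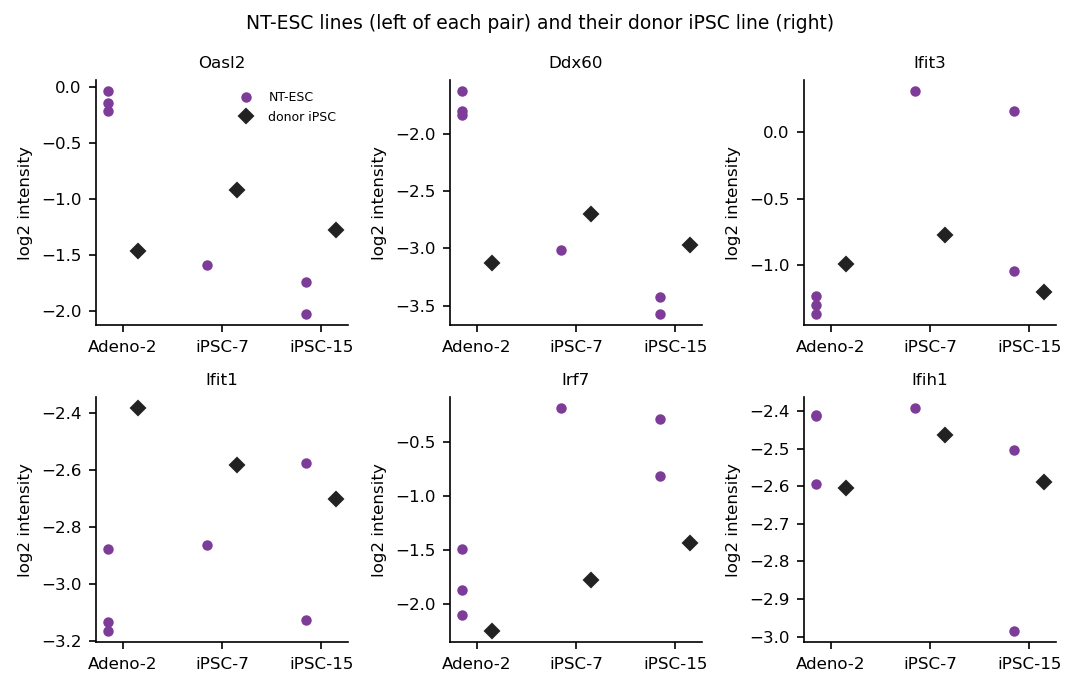
The 6 members in NT-ESC lines (purple circles, left of each pair) and in their donor iPSC line (black diamonds, right), as log2 intensity, with a scale of its own for each gene. Irf7 is above the donor in all 6 lines, and Oasl2 and Ddx60 are above the donor only in the Adeno-2 family.

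Genes with levels most like those of the members were found by Pearson correlation over the 52 ESC and cassette iPSC lines. The mean of the 6 members was most like Rtp4 (r = 0.899), the MHC class I gene H2-K1 (0.897), the guanylate-binding protein Gbp7 (0.837), Usp18 (0.818) and Gbp3 (0.818). Without the 9 blood-derived clones of chimera 2 these were 0.825, 0.855, 0.743, 0.76 and 0.774. The mean includes Oasl2 and Ddx60, which were chosen for their pattern. Their group means spanned 2.91 and 2.62, against 0.36 to 1.12 for the other members. Taken singly, Ifit3 was most like Phf20l1 (0.854), Ifit1 like Chst1 (0.723), Irf7 like Gng4 (0.780) and Ifih1 like Gm9706 (0.775). The values for the mean therefore do not describe each member. H2-K1 averaged 2.38 in blood-derived clones of chimera 2, 1.99 in its TTF-derived clones, 1.16 in blood-derived clones of mouse 2 and 1.68 in ESC. Oasl2 was most like Gt(ROSA)26Sor (0.872), H2-K1 (0.860), Swap70 (0.839), Ocln (0.809) and Cdcp1 (0.809). Ddx60 was most like Il10 (0.814), Gusb (0.807), Samhd1 (0.789), Adm (0.784) and Krt12 (0.778), and these fell to between 0.321 and 0.526 without the 9 clones. All lines share the array platform and many share an animal, so these values carry no test.

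The spread between clones of 1 group was above that of most genes for each member. The pooled SD within origin groups was 0.36 for Ifit1, 0.36 for Ddx60, 0.33 for Oasl2, 0.29 for Ifih1, 0.24 for Ifit3 and 0.22 for Irf7, against a median of 0.15 over all genes. The range of group means ordered them otherwise, at 2.91 for Oasl2, 2.62 for Ddx60, 1.12 for Ifit3, 0.70 for Ifih1, 0.60 for Irf7 and 0.36 for Ifit1. The Ifit1 and Ifit3 values rest on iPSC-46: without it the pooled SD was 0.26 for Ifit1 and 0.18 for Ifit3, and 0.35 for Ddx60.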

How the data were processed

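The deposited log2 values of 59 Affymetrix arrays were used as the authors gave them. Their base of 2 and their centring are read from the range of the values, and how the authors made the log2 values is not given in the sources used here. Of 22626 probe sets, 18003 had 1 gene in the platform annotation, 287 several and 4336 none, and each of 11807 genes was represented by its brightest probe set. The number of arrays limits the precision.

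Each comparison was a linear model with moderated 2-sided tests in limma 3.58.1 (R 4.3.3), with Benjamini-Hochberg adjustment over all genes and a threshold of 0.05. The fits were tested on simulated data. Origin and animal were terms in the fit of 42 clones, and donor line was a block for NT-ESC. Within-animal values come from the fit with interaction terms. The rule names the members in each comparison, up to 4 called genes per list by size of difference, and the 5 genes most correlated with the members' mean, Oasl2 and Ddx60. A few genes beyond this, such as Rtp4 in mouse 2, were named after their values were seen. The members and lists were chosen with earlier results of these data known. Alternatives included other normalization, filters, probe set rules and left-out clones.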

Additional observations from a re-analysis of the deposited data

Results flagged for a closer look

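Chance alone marks about 1 in 20 groups when the most extreme clone of a group is set against the rest, and 5 of 42 pairs of member and group were marked. Ddx60 in ESC-1 (-1.846) lay far above the other 3 ESC clones. Ifit1 in iPSC-46 (-1.325) and Ifit3 in the same clone (0.167) lay far above the other TTF-derived clones of chimera 2. Irf7 in iPSC-5 (-2.181) lay below the other MEF-derived clones, and Ifih1 in iPSC-13 (-2.191) above the other GMP-derived clones of mouse 1. The blood minus fibroblast difference of Ifit3 varied between animals over a span of 0.9092 in the interaction test.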

How the results depend on the processing

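Counts of genes called changed by over 1.5 times as follows. For MEF-derived iPSC against ESC the mean of probe sets gave 7, the replicate block 15, and leaving out 1 clone 0 to 4. Deviations of the 4 same-numbered ESC and MEF-derived clones correlated at 0.062, 0.124, 0.354 and 0.306, and those of other pairs at -0.52 to 0.607. Since 1 of the 4 was not over 0.1, the shared numbers were not taken as a pairing, though they may be one. For all iPSC against ESC, leaving out 1 ESC gave 5 to 1112 genes, animal as a random block 0, and MEF-derived clones left out 2280. One mean per animal and cell type gave 2764 for the test between animals. The fibroblast and feeder covariate gave 2041 for blood against fibroblast origin and 1449 for its interaction with animal, and mouse 1 alone gave 1447. For NT-ESC against ESC the mean of probe sets gave 2, leaving out 1 line 1 to 2, and leaving out NT-7, NT-8 and NT-9 gave 468. For NT-ESC against donors, trend and robust settings gave 12, no replicate or donor block 0 (1158 at an unadjusted p under 0.05), and leaving out the family of iPSC-7 0 (2532), of iPSC-15 12 and of Adeno-2 2434. The causes were not tested.

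Of 328 recomputed values of tested members 25 changed sign, none with an adjusted p under 0.05. For MEF-derived iPSC against ESC the replicate block gave Ifit3 0.0208 and Irf7 0.028, and leaving out 1 clone gave Ifit1 from -0.11 to 0.1364 and Irf7 from -0.0928 to 0.12. For all iPSC against ESC Ifih1 ran from -0.1742 to 0.16 as single ESC clones were left out, positive without ESC-1. For NT-ESC against ESC, leaving out 1 line or ESC clone gave Ifit3 from -0.19 to 0.19 and Ifih1 from -0.1472 to 0.19, and leaving out NT-7, NT-8 and NT-9 gave Ifit3 -0.54 and Ifih1 0.0706. For NT-ESC against donors Ifih1 was -0.25 after quantile normalization, -0.0034 without the family of iPSC-7 and -0.0577 without that of Adeno-2. For blood against fibroblast origin the fibroblast and feeder covariate gave Ifit1 0.23 and Ifit3 0.0788, chimera 2 alone gave Irf7 0.0154, and mouse 1 alone gave Ifit1 0.11. Oasl2, with no test, was -0.40 without chimera 2, -0.19 in mouse 1 and -0.55 in mouse 2. Within-animal fits, fits without single PF- or TTF-derived clones and the covariate on the interaction, and the SD without iPSC-46, were chosen after seeing the data. Every probe set per member gave nothing further, since each had 1.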
